A study of Homo sapiens with 2 samples.

Results

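Expressed long intergenic noncoding RNAs (lincRNAs) were examined in U87MG glioma spheres, and 210 of the 7629 lincRNAs in the annotation were taken as members, out of 58735 genes in all. Members were rows of the biotype lincRNA whose mean FPKM over both libraries was 2 or more, leaving out by name 14 further rows (host genes of small nucleolar RNAs or microRNAs, and BISPR). FPKM is the count of a gene's fragments scaled by its exon length and by a library total. The members were thus chosen by their FPKM averaged over both libraries, and not directly by the difference between them. Of the 210 members, 121 carry only the name of a genomic clone and 89 have another name. RNA sequencing gave 1 library for cells infected with a lentivirus for TRIP13 shRNA and 1 library for cells infected with the pGIPZ-CTRL control lentivirus, both puromycin-selected and kept for a week in stem cell medium. U87MG is an established human glioblastoma line, and TRIP13 encodes an ATPase that remodels checkpoint proteins at mitosis. The labels speak of stable clones and do not say how many clones or cultures stand behind a library.

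With 1 library in each group nothing could be tested against replicates, and the differences below are between these libraries. The library labelled TRIP13 shRNA held 19903836 reads, recovered from the FPKM values, against 18871063 in the control library, and the deposited values were not corrected for that depth ratio of 1.055. TRIP13 went against the label, at 23.1 FPKM in the library labelled TRIP13 shRNA against 11.9 FPKM in the control library (1593 against 819 reads). Directions are therefore those of the labels. Whether the labels of both libraries, the one called the control library here included, are exchanged was not tested; if they are, every higher and lower given here turns round. Of the markers of U87MG and glioma, VIM had 427 and 442 FPKM, CD44 112 and 115 FPKM and EGFR 13.8 and 16.8 FPKM in that order of libraries, whereas SOX2, PROM1 and S100B had at most 5 reads in either library. NES, a neural stem cell marker, was at 2.21 FPKM against 5.23 FPKM, and GFAP, an astrocyte marker, had 28 against 92 reads. OLIG2, a transcription factor of the oligodendrocyte lineage, had 0.339 FPKM (22 reads) against 2.72 FPKM (177 reads), a log2 ratio of -1.48, and the part of such differences in the results below was not tested. In libraries made from bulk cultures, fewer cells of a kind and less RNA per cell cannot be told apart.

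LincRNAs are long transcripts encoded between protein-coding genes, and most are spliced, polyadenylated and held at low levels that vary by cell type. A few abundant ones have well-studied work: MALAT1 collects in nuclear speckles, NEAT1 is the scaffold of paraspeckles, and NORAD binds Pumilio proteins, which repress mRNAs, in the cytoplasm. Others lie close to a coding gene and may share its promoter or its neighbourhood of chromatin, which is why the coding gene with the nearest start is given beside each member.

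The sequence of NORAD (hg38 chromosome 20, 36045622 to 36050960, minus strand, 1 exon) shows its repeats of the Pumilio motif, TGTANATA. The transcript of 5339 bases holds 15 of these motifs, or 2.81 per kb, searched on the transcript's own strand. In 3 places a pair of motifs starts 9 bases apart, and these stretches are printed with the motifs in capitals.
NORAD bases 1427 to 1473: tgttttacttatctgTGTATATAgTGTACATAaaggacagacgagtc
NORAD bases 2624 to 2670: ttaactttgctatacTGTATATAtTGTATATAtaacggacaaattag
NORAD bases 3260 to 3306: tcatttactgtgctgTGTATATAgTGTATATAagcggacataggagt
Among the longest transcripts of the 210 members, 18 hold any TGTANATA and the total is 41 motifs. NEAT1 holds 6 in a transcript of 22743 bases, or 0.264 per kb.

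NEAT1 has 8 annotated transcripts, the longest of 22743 bases and the others of at most 3524 bases. The long form is the one that builds paraspeckles, and it ends in an A-rich tract that forms a triple helix in place of a poly(A) tail. Its last 60 bases follow, with the final 11 bases, the tract, in capitals.
NEAT1 3′ end: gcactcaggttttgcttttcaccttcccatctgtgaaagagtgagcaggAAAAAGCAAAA
LINC00461 (chromosome 5, 88507546 to 88691041, minus strand) is the host of MIR9-2. The mature forms are printed with their seed, bases 2 to 8, in capitals.
hsa-miR-9-5p: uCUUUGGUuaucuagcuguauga
hsa-miR-9-3p: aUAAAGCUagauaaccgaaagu

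Promoters were taken from RefSeq (GRCh38.p14), as the 250 bases before and 50 after the annotated start. They are shown for OLMALINC and SCD, the pair of neighbours with the widest differences, and for HK2, whose start nearly meets that of the member highest in the library labelled TRIP13 shRNA. In the OLMALINC window (chr10:100373326-100373625, plus strand), capitals mark a pair of CCAAT boxes at -109 and -70 and an AP-1 motif, TGANTCA, at -31. In the SCD window (chr10:100346983-100347282, plus strand) they mark CCAAT boxes at -229 and -186. In the HK2 window (chr2:74833877-74834176, plus strand) they mark the 7 bases from the GENCODE start of HK2, at 74833981, to that of AC019069.1, at 74833987 on the other strand. Positions with a minus sign count from the RefSeq start, and the GENCODE starts of OLMALINC, SCD and HK2 lie upstream of it. The AP-1 letters of OLMALINC are thus downstream of its GENCODE start, at 100373513.
OLMALINC promoter: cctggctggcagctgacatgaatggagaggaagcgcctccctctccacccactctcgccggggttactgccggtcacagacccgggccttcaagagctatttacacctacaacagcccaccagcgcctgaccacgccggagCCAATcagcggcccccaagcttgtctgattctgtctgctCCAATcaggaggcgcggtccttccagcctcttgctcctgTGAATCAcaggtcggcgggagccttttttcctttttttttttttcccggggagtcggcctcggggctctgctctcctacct
SCD promoter: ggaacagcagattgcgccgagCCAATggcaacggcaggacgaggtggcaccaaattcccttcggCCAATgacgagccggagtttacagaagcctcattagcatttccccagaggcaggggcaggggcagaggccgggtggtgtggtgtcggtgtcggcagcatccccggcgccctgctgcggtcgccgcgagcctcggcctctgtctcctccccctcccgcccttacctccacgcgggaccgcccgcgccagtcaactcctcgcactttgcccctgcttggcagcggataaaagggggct
HK2 promoter: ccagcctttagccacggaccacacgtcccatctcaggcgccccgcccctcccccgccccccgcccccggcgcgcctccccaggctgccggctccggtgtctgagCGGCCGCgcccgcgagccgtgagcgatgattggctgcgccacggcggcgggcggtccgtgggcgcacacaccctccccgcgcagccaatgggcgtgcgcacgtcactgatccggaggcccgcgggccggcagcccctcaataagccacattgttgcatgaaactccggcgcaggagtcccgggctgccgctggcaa

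Expressed lincRNAs were for the most part lower in the library labelled TRIP13 shRNA. Their median level was 3.32 FPKM in that library against 4.58 FPKM in the control library, and 32 against 49 members reached 10 FPKM. Together they took 77019 reads, or 0.387% of the library (95% Clopper-Pearson interval 0.384 to 0.390), against 118797 reads, or 0.630% (0.626 to 0.633), in the control library. The ratio of these sums was 0.648, and it was 0.619 without NEAT1, MALAT1 and NORAD, which held 53.4% and 51.2% of the members' reads. The sum over the remaining members was thus lower as well. Intervals throughout reflect counting error alone, as no molecular identifiers separate independent molecules from PCR copies.

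**Figure D1:**
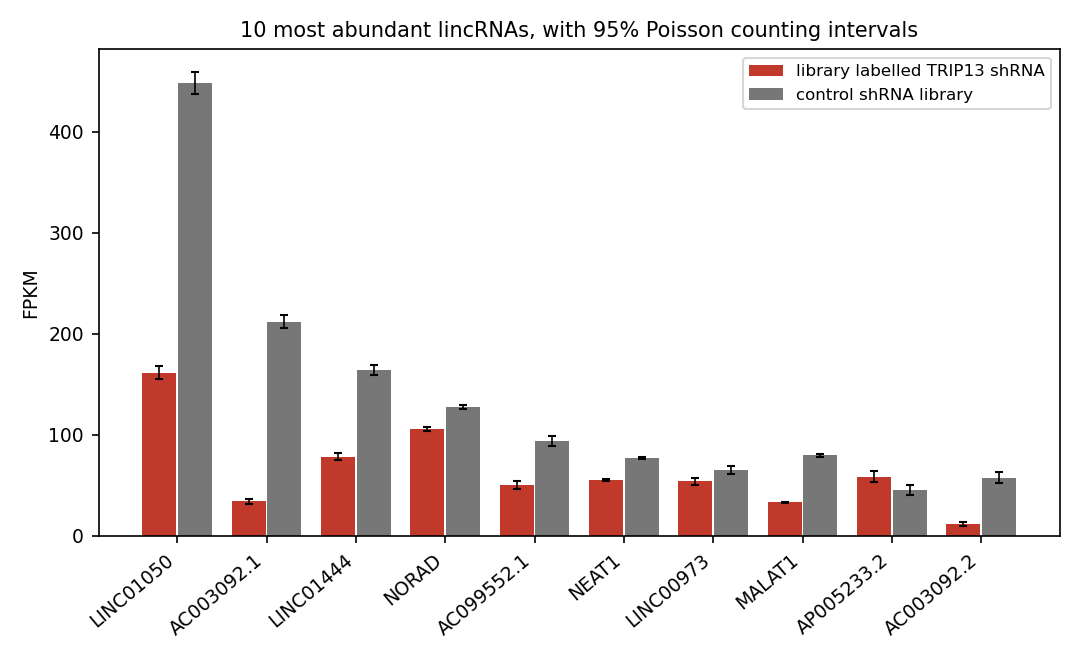
FPKM (bars from 0) of the 10 members with the highest mean, with the library labelled TRIP13 shRNA left of the control library for each gene and error bars giving 95% Poisson counting intervals. The 1 gene with its taller bar on the left is AP005233.2, at 58.7 against 45.2 FPKM.

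Differences were expressed as a log2 ratio, log2 of (FPKM + 1) in the library labelled TRIP13 shRNA over (FPKM + 1) in the control library, a scale that understates the difference of weak transcripts. The median log2 ratio of the members was -0.39 (quartiles -0.73 and 0.08), whereas 9465 coding genes passing the same mean of 2 FPKM had a median of 0.14 and 286 antisense genes one of -0.20. Below 0 lay 149 members, above 0 lay 60, and 1 was at 0. That is 71.0% below 0, against 37.5% of the coding genes. When the median ratio of coding genes was set to 1, which shifts log2 ratios by -0.14 before the pseudocount is added, 161 members lay below 0 and the median was -0.49.

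The size rule used throughout called a gene lower at a log2 ratio of -1 or below and higher at 1 or above (2-fold after adding 1 FPKM). By it, 37 members were lower and 6 were higher. This was 17.6% lower and 2.86% higher, against 4.15% and 2.32% of the coding genes and 5.22% and 2.43% of the 10768 genes of every biotype. The share lower was thus larger than the background and the share higher close to it. Antisense genes had 11.5% lower and 1.75% higher. The gap was also present between genes of like level: at a mean of 2 to 10 FPKM, 14.9% of 174 members were lower and 2.87% higher, against 4.11% and 1.8% of 4988 coding genes. Of the 36 members at 10 FPKM or more, 30.6% were lower and 2.78% higher. Of the 82 at 5 FPKM or more, 26.8% were lower and 2.44% higher, against 4% and 2.77% of 6992 coding genes, and of all 10671 coding genes at 1 FPKM or more it was 4.19% and 2.17%. The read split gave a counting interval for the FPKM ratio wholly below 1 for 105 members, wholly above 1 for 29 and including 1 for 76. All 37 lower and 6 higher members had an interval that left out 1. They were called from the same counts, so this is no separate support for the calls.

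The mean filter admits transcripts that are high in 1 library alone, and such a member has to differ. At 2 FPKM or more in both libraries stood 149 members, 18 reached it only in the library labelled TRIP13 shRNA and 43 only in the control library. Among the 149, 12.1% were lower and 2.01% higher, against 3.13% and 2.2% of 8959 coding genes held to the same rule. Just inside the threshold, FOXD2-AS1 had 1.58 FPKM in the library labelled TRIP13 shRNA against 2.45 in the control library, AL023803.2 had 2.59 against 1.46 and AC245033.2 had 2.82 against 1.23. Just outside it, LINC02062 had 2.27 against 1.73, AC125807.2 had 2.95 against 1.03 and AL118508.1 had 0.945 against 3.01 FPKM.

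**Figure D2:**
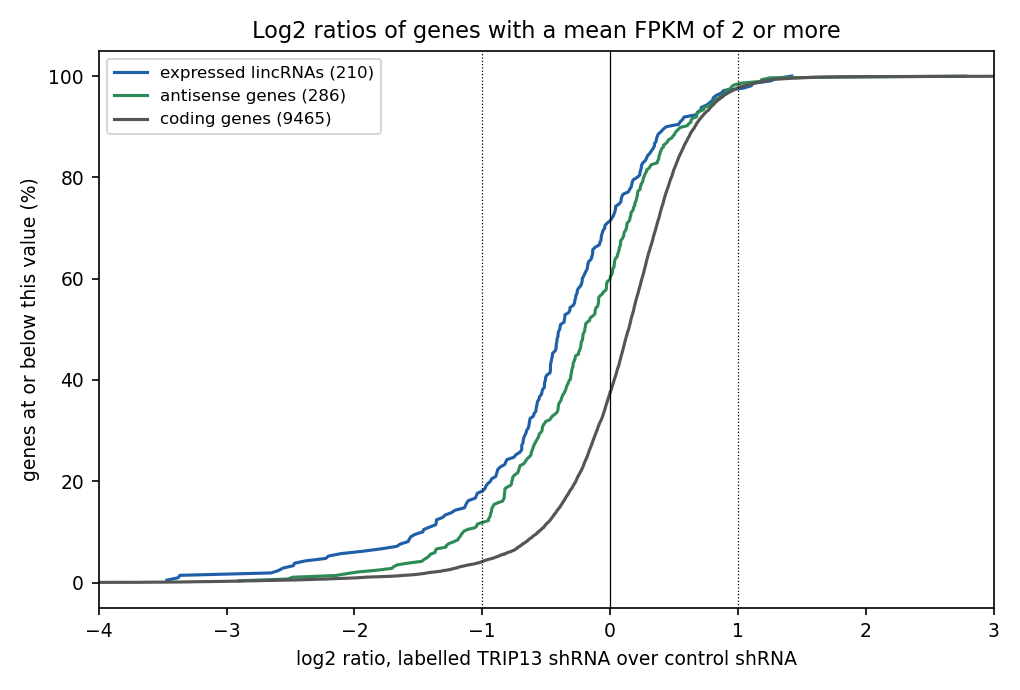
Cumulative share of genes (percent) by log2 ratio for the 210 lincRNAs, 286 antisense genes and 9465 coding genes with a mean of 2 FPKM or more, with dotted lines at the size rule. The lincRNA curve lies left of the coding curve through the middle of the range, with medians of -0.39 and 0.14.

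**Figure D3:**
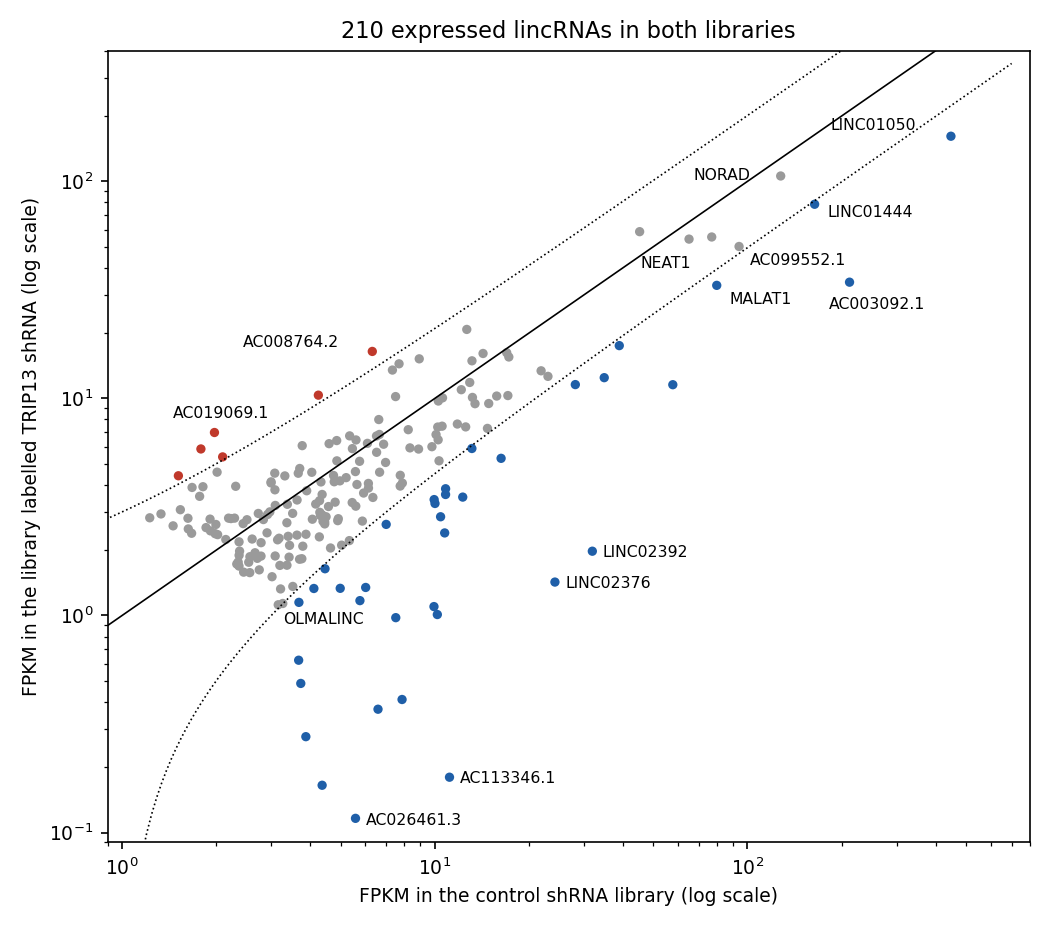
FPKM of the 210 members in the library labelled TRIP13 shRNA (vertical, log axis) against the control library (horizontal, log axis). The solid line marks equal levels and the dotted lines the size rule; 6 members lie above the upper dotted line and 37 below the lower one.

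The members differ in build. Their exon length ran from 168 to 22767 bases with a median of 1055, against 5091 for the coding genes, and reads summed over both libraries ran from 15 to 58395 with a median of 201.5. Of the 210, 49 consist of a single exon block; their median log2 ratio was -0.23, with 6 lower and 2 higher. The 161 with several blocks had a median of -0.42, with 31 lower and 4 higher. Since the strand setting of the counting is not known, reads may be shared with overlapping genes: 49 members share exon sequence with another gene, 1 of them over more than 50% of its length. The 161 members without such overlap had a median of -0.42, with 34 lower and 4 higher, so most of the lower calls concern transcripts that share no annotated exon sequence.

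The nuclear lincRNAs MALAT1 and NEAT1 lie next to each other on chromosome 11 and differed to unequal degrees. MALAT1 (65497688 to 65506516, plus strand), the speckle RNA, had 33.2 FPKM (5680 reads) in the library labelled TRIP13 shRNA against 79.8 FPKM (13652 reads) in the control library. This is a ratio of 0.416 (counting interval 0.403 to 0.429) and a log2 ratio of -1.24, past the size rule, with 6.21% of its exon length shared with other genes. NEAT1 (65422774 to 65445540, plus strand) had 55.5 FPKM (24469 reads) against 76.9 FPKM (33926 reads), a ratio of 0.721 (0.709 to 0.733) and a log2 ratio of -0.46. The intervals of these ratios do not meet. The counts do not separate the long, tract-ended form of NEAT1 shown above from its short forms.

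Most protein partners of both RNAs did not share that direction. Of 12 paraspeckle proteins, 11 had a mean of 1 FPKM or more and all 11 had log2 ratios above 0, none past the size rule, with a median of 0.34; SFPQ, the lowest at 0.10, turned to -0.01 under TPM and to -0.03 with the coding median set to 1. NONO, which with SFPQ holds NEAT1 in paraspeckles, had 83.2 FPKM against 62.6 FPKM. Of 11 speckle and MALAT1 processing proteins, 10 were used and all 10 were above 0, median 0.54. SRRM2, at 0.11, turned to -0.02 with the coding median set to 1. U2AF1, left out at a mean of 0.395 FPKM, had 27 reads against 143 in the control library (log2 ratio -0.56). ELAC2, the nuclease that trims the small tRNA-like RNA cut from the MALAT1 3′ end, was at 18.7 FPKM against 9.19 FPKM (log2 ratio 0.95). The nuclear exosome and Integrator are complexes that degrade or terminate noncoding transcripts. Of 21 symbols listed for them, 19 matched a gene and all 19 were used. Of these, 14 were above 0 and 5 below, with a median of 0.40. ZFC3H1, which hands polyadenylated nuclear RNA to the exosome, was at 4.45 FPKM against 8.51 FPKM (-0.80). Coding genes in general also leaned upward. Of the 9465 with a mean of 2 FPKM or more, 37.5% lay below 0, and their median was 0.14. The lists took genes from 1 FPKM, and whether they differ from that background was not tested.

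NORAD, the Pumilio-binding RNA whose motif pairs are printed above, was the most abundant of the members with a known molecular function. It had 106 FPKM (10960 reads) in the library labelled TRIP13 shRNA against 128 FPKM (13222 reads) in the control library. Its ratio was 0.829 (0.808 to 0.850) and its log2 ratio -0.27, a smaller difference than that of the median member. Among proteins reported to bind it, PUM2 had 17.8 FPKM against 18.2 FPKM (log2 ratio -0.03) and RBMX 46.8 FPKM against 35.9 FPKM (0.37), neither past the size rule. EPB41L4A-AS1 was the other member on the list of cytoplasmic and RNA-binding lincRNAs, and where it resides was not examined. It had 4.57 against 4.04 FPKM, with a ratio interval from 0.953 to 1.34 and 49.6% of its exon length shared.

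Members linked to p53 numbered 4 of 10 listed symbols, NEAT1 and NORAD among them. All 4 were below 0, as were 71.0% of all 210 members, and none was past the size rule. PURPL, a p53-induced transcript that restrains p53, had 7.39 FPKM (378 reads) against 12.6 FPKM (642 reads), log2 ratio -0.69. TP53TG1, a p53 target, had 2.27 against 3.18 FPKM, with a ratio interval from 0.476 to 1.06 that includes 1. On the inflammation list, 4 of 11 symbols were members and 2 of these, MALAT1 and LINC01705, were past the size rule downward. Of all 210 members, 17.6% were. LINC00346 had 5.87 against 5.45 FPKM, a log2 ratio of 0.09 that turned below 0 under TPM and with the coding median set to 1.

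Members linked to cancer and growth were not lower as a group. Of the 24 symbols listed, 6 were members, 4 above 0 and 2 below, none past the size rule, with a median log2 ratio of 0.17; with the coding median set to 1, 3 lay on each side. LINC01116, encoded near the HOXD cluster, was the highest at 13.5 FPKM (467 reads) against 7.32 FPKM (253 reads), a log2 ratio of 0.80. LINC00461, the miR-9 host printed above and typical of neural tissue, had 2.54 FPKM (304 reads) against 1.86 FPKM (222 reads), log2 ratio 0.31. CRNDE, reported as raised in gliomas, had 3.33 against 4.80 FPKM (-0.42). PVT1, the neighbour of MYC, had 2.76 against 2.51 FPKM, and its ratio of 1.10 had an interval from 0.930 to 1.30; its log2 ratio of 0.10 turned just below 0 with the coding median set to 1. LINC00460 was at -0.22 and LINC01234 at 0.25.

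The most abundant members were largely transcripts of little-known function. LINC01050 (chromosome 13, 42810366 to 42812562, minus strand) led them, with 162 FPKM (2379 reads) in the library labelled TRIP13 shRNA against 448 FPKM (6594 reads) in the control library. It was 2.77-fold lower (2.64 to 2.91). LINC01444 on chromosome 18 had 78.5 FPKM (2032 reads) against 164 FPKM (4248 reads), 2.09-fold lower (1.98 to 2.21). Its neighbour on the opposite strand, LINC01443, had 11.6 against 28.2 FPKM (log2 ratio -1.21). LINC00973 had 54.2 against 65.1 FPKM (-0.26). AP005233.2, near MYEOV, had 58.7 FPKM (423 reads) against 45.2 FPKM (326 reads), and its log2 ratio of 0.37 was the only positive one among the 10 most abundant members.

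Most of the 12 members furthest below 0 had few reads in the library labelled TRIP13 shRNA, and those under 2 FPKM there passed the mean filter through the control library alone. LINC02392 (chromosome 12, 90280894 to 90300340, plus strand, 7 exon blocks) had 1.98 FPKM (43 reads) in the library labelled TRIP13 shRNA against 31.9 FPKM (694 reads) in the control library. It was 16.1-fold lower (11.9 to 22.5), with a log2 ratio of -3.47, and its nearest coding start, that of CCER1, is 625 kb away and had no read. LINC02376, also on chromosome 12 (127274467 to 127284283, minus strand), had 1.43 FPKM (20 reads) against 24.2 FPKM (340 reads), 17.0-fold lower (10.8 to 28.2). Both are spliced transcripts that share no exon sequence with other genes.

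Further members of this end had few reads in the library labelled TRIP13 shRNA. AC113346.1 had 1 read there against 62 in the control library, a ratio of 0.0161 with an interval from 0.000402 to 0.0932. AC026461.3, whose start is 1302 bases from that of the metallothionein gene MT2A, had 1 read against 48, a ratio of 0.0208 (0.000517 to 0.122). Their intervals are wide and end below 1, but both members were picked for low ratios in the same counts. MT2A itself, a metal-binding protein, had 1086 FPKM against 1686 FPKM (log2 ratio -0.63). LINC01326 had 6 reads against 115 (log2 ratio -2.65) and LINC01705 11 against 111 (-2.48). AL355607.2 had 10 against 178 (-2.47) and AL499627.1 7 against 185 (-2.20). LINC02015 had 1.10 FPKM (64 reads) against 9.94 FPKM (579 reads), 9.05-fold lower (6.98 to 11.9). Of the nearest coding genes of these transcripts, DUSP10, a phosphatase that acts on stress kinases, was at -0.26 beside LINC01705, and SYK, GATA5 and KCNMB2 were close to 0 FPKM in both libraries.

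**Figure D4:**
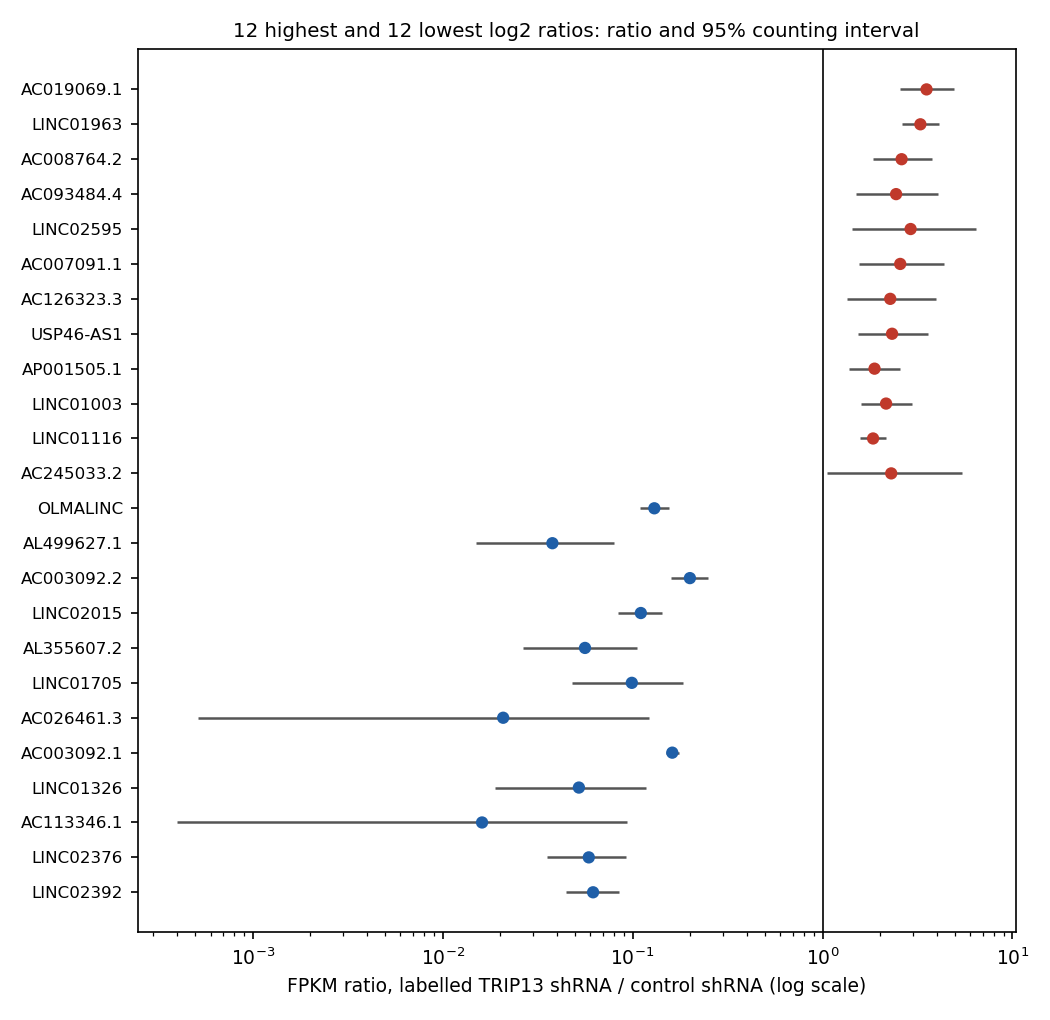
FPKM ratio (log axis, without a pseudocount) of the library labelled TRIP13 shRNA over the control library for the 12 members with the highest and the 12 with the lowest log2 ratio, as points with 95% counting intervals; the vertical line marks equal levels. No interval touches 1, in members picked by ratios from the same counts. The widest belong to AC113346.1 and AC026461.3, each with 1 read in the library labelled TRIP13 shRNA.

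AC003092.1 and AC003092.2 lie next to each other on chromosome 7 and were both abundant in the control library. AC003092.1 (94022833 to 94066661, plus strand) had 34.3 FPKM (708 reads) in the library labelled TRIP13 shRNA against 212 FPKM (4375 reads), 6.18-fold lower (5.71 to 6.70). AC003092.2 (94071759 to 94077157, minus strand) had 11.6 FPKM (100 reads) against 57.7 FPKM (499 reads), log2 ratio -2.22. The nearest coding start is that of BET1, a vesicle transport protein, at 6.93 against 14.5 FPKM (-0.97). TFPI2, a serine protease inhibitor looked up after these values were seen, starts 137 kb from AC003092.1 and had 178 FPKM against 1724 FPKM, a log2 ratio of -3.27.

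Few members were higher in the library labelled TRIP13 shRNA, and by smaller factors. AC019069.1 (chromosome 2, 74832655 to 74833987, minus strand) had 6.97 FPKM (180 reads) there against 1.97 FPKM (51 reads) in the control library, a ratio of 3.53 (2.57 to 4.92) and a log2 ratio of 1.42. Its 5′ end lies 6 bases from that of HK2, hexokinase of glycolysis, on the opposite strand, as in the window printed above, and HK2 had 54.2 against 39.2 FPKM (log2 ratio 0.46). LINC01963 had 5.85 FPKM (357 reads) against 1.79 FPKM (109 reads), a ratio of 3.28 (2.64 to 4.10), and its nearest coding gene, the ubiquitin ligase MARCH4, had 4.01 against 2.02 FPKM (0.73). Both neighbours were thus on the same side of 0 as the lincRNA without passing the size rule.

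The other 4 members past the size rule upward rest on fewer reads. AC008764.2 had 120 against 46 reads (log2 ratio 1.26), with 7.18% of its exon length shared, and its neighbour SMIM7 was at 0.86. AC093484.4 had 61 against 25 reads (1.11), and LRRC75A, whose start is 1098 bases away, was at -0.35. LINC02595 had 32 against 11 reads (1.10), with KRBOX4 at 0.43. AC007091.1 had 59 against 23 reads (1.04), and its neighbour FERD3L had no read in either library. The next 6, from AC126323.3 at 0.89 through USP46-AS1, AP001505.1, LINC01003 and LINC01116 to AC245033.2 at 0.78, did not reach the rule.

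Each member was set beside the coding gene whose start is nearest. The median distance was 40.4 kb, 50 members lay within 10 kb and 63 beyond 100 kb. The nearest gene had a mean of 1 FPKM or more for 157 members (147 distinct genes); for the other 53 it was below that, and 21 of these neighbours had no read. Of the 157, 99 or 63.1% were on the same side of 0 as their neighbour, against 57.9% of 6127 coding genes and their own nearest coding gene. Where both log2 ratios were 0.5 or more in size, it was 27 of 33 (81.8%), against 69.8% of 569 coding pairs. In 64 pairs both were below 0 and in 35 both above. In 46 the lincRNA was below and the neighbour above, and in 12 the reverse. Across the 157 pairs, Pearson's r of the log2 ratios was 0.42 and Spearman's rho 0.38, against 0.16 and 0.14 over coding pairs; without OLMALINC r was 0.37. These coefficients describe genes of the same 2 libraries, which are not independent points.

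Among members taken by mean FPKM, distance from the coding gene went with the share that was lower. Beyond 100 kb, 21 of 63 members (33.3%) were at least 2-fold lower, with a median log2 ratio of -0.53. At 10 to 100 kb it was 12 of 97 (12.4%), median -0.35, and under 10 kb 4 of 50 (8%), median -0.31. The share on the same side as an expressed neighbour was 70.0% (28 of 40), 66.7% (50 of 75) and 50% (21 of 42) in that order. Members whose nearest coding gene was below 1 FPKM had a median of -0.47, with 13 lower and 2 higher of 53, against -0.31, with 24 and 4 of 157, where it was expressed. Of all 210 members 17.6% were lower, against 4.15% of coding genes with a mean of 2 FPKM or more. Many lower members beyond 100 kb, LINC02392 and LINC02376 among them, had under 2 FPKM in the library labelled TRIP13 shRNA. These passed the mean filter through the control library alone and so had to differ. The shares by distance were not recomputed for members at 2 FPKM or more in both libraries. Both ends of the distance range were below 0 in their medians, and the difference between them was not tested.

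Few members in head-to-head pairs passed the size rule, 1 of 32 in each direction. Of all 210 members 17.6% were lower and 2.86% higher, and of genes of every biotype 5.22% and 2.43%. The difference from these shares was not tested. In 32 cases the member and its nearest coding gene lie on opposite strands with 5′ ends within 1 kb. Of these, FLJ42351, at 2.63 FPKM against 6.99 FPKM beside the phosphate transporter gene SLC20A1, was the 1 past the size rule downward, and AC019069.1 the 1 upward. The 32 had a median of -0.37 while their coding partners had one of 0.09, which turned to -0.02 under TPM and -0.04 with the coding median set to 1, and 17 of 32 pairs were on the same side of 0. PICART1 beside the integrin gene ITGA3 was at -0.97 with its partner at -0.58, whereas BAIAP2-DT was at -0.39 with BAIAP2 at 1.03 and AL355338.1 was at 0.67 with PCCA at -1.23. The lincRNA and its head-to-head partner thus stood on opposite sides of 0 in nearly as many pairs as not.

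**Figure D5:**
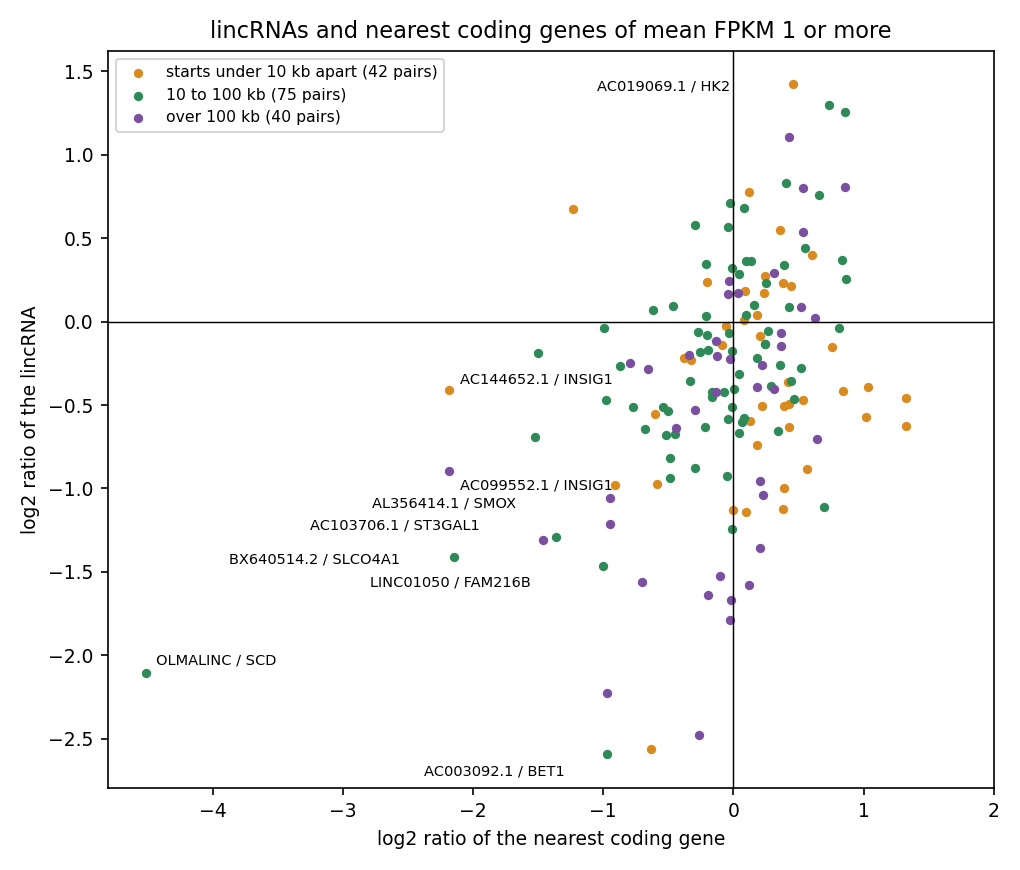
Log2 ratio of each lincRNA (vertical) against that of its nearest coding gene (horizontal), for the 157 pairs with a coding gene of mean FPKM 1 or more, coloured by distance between starts. OLMALINC with SCD lies furthest to the lower left, at -2.10 and -4.51, and 64 pairs fall in the lower left part.

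In 5 of the 157 pairs (3.18%) both genes were at least 2-fold lower, against 0.424% of the coding pairs. Taken singly, 15.3% of these 157 members were lower, against 4.15% of coding genes with a mean of 2 FPKM or more. How much of the gap between pairs goes with these single shares was not tested. OLMALINC (chromosome 10, 100373513 to 100454043, plus strand), a transcript named for oligodendrocyte maturation, starts 26.4 kb downstream of the start of SCD, the stearoyl-CoA desaturase that makes monounsaturated fatty acids. It had 0.977 FPKM (147 reads) in the library labelled TRIP13 shRNA against 7.504 FPKM (1129 reads) in the control library, 7.68-fold lower (6.46 to 9.18). SCD had 32.1 FPKM against 756 FPKM, a ratio of 0.0425 (0.0411 to 0.0440). Both lie on the plus strand. The windows printed above hold a pair of CCAAT boxes each. So does the HK2 window, at -118 and -62 from its RefSeq start (not in capitals) and downstream of its GENCODE start. LINC01050 was at -1.47 and its neighbour FAM216B had 18.4 against 37.8 FPKM, just past the size rule. BX640514.2 had 12.5 FPKM (151 reads) against 34.8 FPKM (422 reads), and SLCO4A1, an organic anion transporter, 1.32 against 9.26 FPKM. AL356414.1 had 3.84 against 10.8 FPKM and SMOX, spermine oxidase, 3.64 against 10.96 FPKM. AC103706.1 had 3.42 against 9.95 FPKM and ST3GAL1, a sialyltransferase, 11.9 against 34.4 FPKM. No pair had both genes at least 2-fold higher.

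A pair of members lies near INSIG1, which holds the sterol sensor of cholesterol synthesis in the endoplasmic reticulum. INSIG1 had 62.4 FPKM against 287 FPKM (log2 ratio -2.18). AC099552.1, 101 kb away, had 50.1 FPKM (723 reads) against 94.0 FPKM (1356 reads), log2 ratio -0.89. AC144652.1, which starts 235 bases from INSIG1 on the opposite strand, had 2.99 FPKM (94 reads) against 4.29 FPKM (135 reads), log2 ratio -0.41. The member nearer to INSIG1 thus had the smaller log2 ratio in size. The FPKM ratios were 0.696 (counting interval 0.529 to 0.913) for AC144652.1 and 0.533 (0.486 to 0.584) for AC099552.1. These intervals overlap.

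Some members lie near each other. With gaps of at most 100 kb, 36 members form 18 loci of neighbours, and in 14 loci all were on 1 side. Since 71.0% of all 210 members were below 0, members that are not neighbours would often agree as well. That share counts single members and not loci, and agreement beyond it was not tested. In 5 loci the members overlap, and with the strand setting unknown these may share reads. LINC02015 and AC007953.1 on chromosome 3 were at -2.38 and -1.93, the second with 3 against 42 reads. AL499627.1 and BX640514.2 on chromosome 20 were at -2.20 and -1.41, and LINC02262 and LINC02263 on chromosome 4 at -1.36 and -0.96. LINC01116 and LINC01117 on chromosome 2 were both above 0, at 0.80 and 0.54. The 4 exceptions include AC019069.1 (1.42) with AC104135.1 (-0.22), and AL365203.2 (0.28) with ITGB1-DT (-0.67). By chromosome, the 16 members of chromosome 2 had a median of 0.16, with 2 lower and 2 higher, while the 10 of chromosome 4 had one of -0.81, with 3 lower and none higher. Of all 210 members 17.6% were lower and 2.86% higher. These chromosomes are picked from 23. Chromosome 15 had a higher median, 0.18 over 4 members, and chromosome 9 a lower one, -0.82 over 3 members. Differences between chromosomes were not tested.

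RefSeq promoters matched 79 of the 210 members by symbol or identifier, 103 windows of 300 bases in all. Motifs were searched on both strands. AP-1, TGANTCA, was in 17.5% of the member windows against 7.71% of all 35116 windows. CCAAT was in 40.8% against 34.6%, the cyclic AMP element TGACGTCA in 3.88% against 1.85%, the E-box CACGTG in 7.77% against 7.26%, the TATA box TATAAA in 5.83% against 11.5% and the NF-kB motif in 0.971% against 1.40%. The 15 members with AP-1 letters had a median log2 ratio of -0.47, with 4 lower (OLMALINC, LINC01050, LINC01443 and LINC01807) and none higher, against -0.41, with 10 lower and 1 higher, for the 64 without. The medians of members with and without AP-1 letters were thus close. TCACNCCAC, a sterol element chosen after the values of SCD and INSIG1 were seen, was in 1.94% of member windows against 1.13% of all, and in neither the OLMALINC nor the SCD window. These are matches of letters in a window and say nothing of binding.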

How the data were processed

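Members and gene lists were chosen with earlier results of these data known. The authors deposited FPKM values per gene. Per the submitters' processing notes the tools were featureCounts 1.5.0-p3, HISAT2 2.0.5 and edgeR on build hg38, with no role given for each; the strand setting is not given in the sources used here. Per the labels' protocols, TRIZOL-extracted total RNA went into the NEBNext Ultra kit. FPKM times exon length was a whole multiple of a common step of 51.6 in both libraries for 100% of values (tolerance 0.01 read), which gave reads and exact (Clopper-Pearson) 95% intervals. Log2 ratios used a pseudocount of 1 FPKM, with no test. All 58735 genes matched GENCODE release 29 by identifier and position, and symbols were taken from it. Promoters and microRNAs came from RefSeq. The genes described were the 12 highest and 12 lowest log2 ratios, the 10 of highest mean FPKM, members of the lists, pairs in which both genes differed 2-fold, and the 3 lincRNAs on each side of the threshold; other genes were added after their values were seen. The count over the listed NORAD partners is not reported here. Calculations were tested on simulated data. Scripts ran in Python 3.11.15 (scipy 1.17.1, pandas 2.3.3, numpy 2.4.6), with figures from matplotlib 3.10.9. Alternatives covered pseudocounts, filters, scalings and the choice of neighbour.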

Additional observations from a re-analysis of the deposited data

How the results depend on the processing

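No paired analysis was possible because there was 1 library a group. No alternative reversed the direction of the median log2 ratio over all members. The 6 members at least 2-fold higher became 11 with a pseudocount of 0.1 FPKM, 0 with 5 FPKM, 2 with a mean of 5 FPKM or more, 3 with the coding median set to 1, and 3 with 2 FPKM or more in both libraries, a filter chosen after seeing the data. The 37 lower members became 18 with a pseudocount of 5 FPKM, 59 of 417 with a mean of 1 FPKM or more, 22 of 82 with 5 or more and 18 of 149 with 2 in both libraries; under other scalings and pseudocounts they numbered 41 to 52. The median of -0.39 became -0.48 with a pseudocount of 0.1 FPKM, -0.21 with 5, -0.25 with a mean of 1 or more, -0.48 with 5 or more, -0.57 under TPM and -0.49 with the coding median set to 1. Pairs on the same side numbered 190 of 314 with a mean of 1 or more, 38 of 59 with 5 or more and 27 of 33 (81.8%) where both log2 ratios reached 0.5 in size, against 69.8% of coding pairs. Without LINC01050 the members took 0.375% of reads in the library labelled TRIP13 shRNA, against 0.595% in the control library. Over the 3 scalings and both pseudocounts, 11 of the 210 members changed sign, LINC00346 and PVT1 among them, and none of the 43 past the size rule did. Of 14 group medians recomputed the same way, an alternative chosen after seeing the data, that of the head-to-head coding partners turned. Before the pseudocount is added, TPM and own totals move log2 ratios by -0.12 and -0.08; after it, members move unequally. Depth limits the short, weak members most: 19 had under 50 reads.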

Other observations

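LincRNAs under the mean of 2 FPKM leaned the same way but less far, on a scale that understates the difference of weak transcripts. The 207 with a mean of 1 to 2 FPKM had a median log2 ratio of -0.13, with 122 below 0. By the size rule 22 of the 207 were lower and 3 higher. Of the 10671 coding genes at 1 FPKM or more, 4.19% were lower and 2.17% higher. The shares of coding genes at 1 to 2 FPKM alone were not computed. MEG3, an imprinted lincRNA, had 0.260 FPKM (117 reads) in the library labelled TRIP13 shRNA against 2.03 FPKM (913 reads) in the control library. DIRC3 had 60 against 287 reads (log2 ratio -1.33) and LINC00839 4 against 83. AL359237.1 had no read against 64, at least 21.3-fold lower against a floor of 3 reads per library. PACERR, transcribed next to the prostaglandin synthase gene PTGS2, had 14 against 44 reads, while PTGS2 had 3.41 FPKM against 59.9 FPKM. In the other direction, AC145207.5 had 145 against 27 reads (1.32) and LINC01411 184 against 54 (1.01). Over the whole annotation, 2185 lincRNAs had at least 1 read in the library labelled TRIP13 shRNA against 2601 in the control library, the shallower of both.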
